A study of Mus musculus with 32 samples.

Results

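The cell cycle and DNA replication genes are a set of 37 named genes in the mouse gastrocnemius (GAS) muscle after nerve transection. They were chosen by name and function, with earlier results of these data known. Of these genes, 24 act in the G2 phase and mitosis (G2/M), while the other 13 act at the G1 to S transition and in DNA replication. The deposited table held 33397 genes as FPKM, that is fragments scaled to the length of the exons and to the size of the library, and 22071 genes reached an FPKM of 0.1 in at least 4 of the 32 samples. All 37 members passed this filter. In the study, GAS muscles of C57BL/6 mice, given in the methods as C57BL/6J males aged 6 to 8 weeks, were sequenced at 0, 1, 3, 5, 7, 14, 21 and 28 d after a piece of the left sciatic nerve had been removed, with 4 samples at each time point. The labels list the nerve transection for the 0 d samples too, and these 4 samples served as the undenervated reference for every later time point. No column is tied to an individual animal, the columns of the 0 d group were assigned by elimination, and replicate numbers below follow the order of the columns within a group. The p-values therefore measure the spread between these samples.

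Cells that divide pass through an ordered cycle. In G1, cyclin E and the E2F factors switch on genes for DNA synthesis, in S phase the MCM helicase opens the DNA and ribonucleotide reductase supplies deoxynucleotides, and in G2 and mitosis cyclin B, Cdk1 and the Aurora and Polo kinases drive chromosome segregation. Nuclei of mature muscle fibres do not divide. Transcripts of mitotic genes in a whole muscle would thus be looked for mainly in mononuclear cells such as satellite cells, macrophages and fibro-adipogenic progenitors. The cells of origin were not identified here. In such bulk samples more cells of a type and more RNA per cell cannot be told apart.

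Fragment numbers recovered from the FPKM values gave 14199882 to 17561602 fragments per sample, of which the 37 members took 2463 to 9247. The extraction text of the labels names retinas, whereas the tissue is given as GAS. Summed FPKM of 10 muscle fibre markers was 46947 to 51155 at 0 d and 25361 to 29741 at 3 d, and that of 9 retina markers did not exceed 1.95 in any sample. Summed FPKM of 10 macrophage markers was 162 to 237 at 0 d, 318 to 1120 at 3 d, 666 to 813 at 5 d and 539 to 631 at 28 d. That of 8 fibro-adipogenic progenitor markers was 468 to 608 at 0 d, 320 to 747 at 3 d, 677 to 810 at 5 d and 567 to 753 at 28 d. The neutrophil sum of 6 genes was at most 2.30 at 0 d, 9.04 to 97.0 at 1 d, 19.6 to 32.9 at 3 d and 21.1 to 41.4 at 28 d, and the Schwann cell sum of 6 genes was 65.7 to 144 at 0 d, 14.8 to 40.1 at 3 d and 17.2 to 38.4 at 28 d. From 3 d on neither sum overlapped with its 0 d range. The satellite cell and myoblast list of 7 genes, most of whose sum was the intermediate filament gene Des, summed to 579 to 714 at 0 d, 1066 to 1201 at 3 d and 1382 to 1508 at 5 d. Summed FPKM of the lymphocyte list of 9 genes did not exceed 2.32 in any sample. The median difference of all genes from 0 d was 0.13, 0.13, 0.15, 0.10 and 0.14 on the log2(FPKM + 1) scale at 5, 7, 14, 21 and 28 d. Counts of all members called against 0 d are therefore also given after median-ratio scaling, which removes this shift. For other counts and gene lists this was done in part.

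Replicate 1 at 3 d stood apart from its group. It was the lowest of the 4 samples for 35 of the 37 members, among them all 24 G2/M members. Summed FPKM of the G2/M members was 8.07 in this sample and 25.1 to 46.8 in the other three, and summed FPKM of Mcm2 to Mcm7 was 13.4 against 20.7 to 27.9. Its macrophage sum of 318 was below the 577 to 1120 of the other three, while its muscle fibre sum of 28368 and its satellite cell and myoblast sum of 1070 lay among theirs. The fibro-adipogenic progenitor sum was 320 in it and 539 to 747 in the others, and its Schwann cell (14.8), endothelial (73.3), adipocyte (14.1) and lymphocyte (0.228) sums were also the lowest of the 4. Mitochondrial genes took 13.5% of its fragments and 9.95 to 11.5% of the others', and its median-ratio size factor was 0.809 against 0.968 to 1.07. The part of these values in its members' levels was not tested. The main counts of members that rest on the 3 d group are given with and without it, while most counts of other gene lists include it. Replicate 2 at 5 d was likewise the lowest of its group for 35 members, 22 of them G2/M genes, with a G2/M sum of 18.4 against 28.7 to 40.7 and an Mcm sum of 15.9 against 21.5 to 22.4. Its Schwann cell sum of 16.9, neutrophil sum of 17.5 and adipocyte sum of 27.8 were the lowest of the 4, its macrophage sum of 679 lay among the others, and without it the counts at 5 d stayed at 33 higher and 1 lower. At 7 d the samples were also spread, with a G2/M sum of 30.1 in replicate 4, whose macrophage sum was 1357, and of 8.08 in replicate 3, whose macrophage sum was 458. The fibro-adipogenic progenitor sum was 974 in the former and 472 in the latter, the Schwann cell sum 64.1 and 13.9, and the neutrophil sum 42.1 and 25.1. The part of these markers in the differences was not tested.

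Promoters of a few members are shown because G2/M and replication genes are textbook examples of groups with different promoter words. The words searched on both strands were the CHR element (TTTGAA), which is bound by the DREAM and MuvB complexes, the CCAAT box (CCAAT), which is bound by NF-Y, and an E2F word (TTCCCGC or TTGGCGC). Sequences are from RefSeq on GRCm38.p6 and run from 250 bases before to 30 bases after the start of the promoter listed first for each gene. Capitals mark matches to these words on either strand. Mki67 (chr7:135716350-135716629, minus strand), Ccnb2 (chr9:70421525-70421804, minus strand) and Cdk1 (chr10:69352883-69353162, minus strand) represent the G2/M members, and Mcm6 (chr1:128359676-128359955, minus strand) and Rrm2 (chr12:24708004-24708283, plus strand) the replication members.
Mki67: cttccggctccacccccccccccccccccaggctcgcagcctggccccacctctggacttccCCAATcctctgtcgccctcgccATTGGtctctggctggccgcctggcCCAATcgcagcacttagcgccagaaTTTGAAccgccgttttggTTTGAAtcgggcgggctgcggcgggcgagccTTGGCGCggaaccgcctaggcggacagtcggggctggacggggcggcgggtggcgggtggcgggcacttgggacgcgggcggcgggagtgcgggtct
Ccnb2: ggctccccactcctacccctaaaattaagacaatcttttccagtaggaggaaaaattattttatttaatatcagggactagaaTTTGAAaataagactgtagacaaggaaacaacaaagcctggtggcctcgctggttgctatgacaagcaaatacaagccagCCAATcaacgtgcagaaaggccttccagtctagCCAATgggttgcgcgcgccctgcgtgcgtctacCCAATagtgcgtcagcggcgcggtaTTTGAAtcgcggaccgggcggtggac
Cdk1: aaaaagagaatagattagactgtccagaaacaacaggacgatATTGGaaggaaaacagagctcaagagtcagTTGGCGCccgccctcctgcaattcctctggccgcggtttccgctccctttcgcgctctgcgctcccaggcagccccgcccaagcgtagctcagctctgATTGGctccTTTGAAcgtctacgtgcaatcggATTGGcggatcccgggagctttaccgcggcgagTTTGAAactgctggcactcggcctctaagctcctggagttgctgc
Mcm6: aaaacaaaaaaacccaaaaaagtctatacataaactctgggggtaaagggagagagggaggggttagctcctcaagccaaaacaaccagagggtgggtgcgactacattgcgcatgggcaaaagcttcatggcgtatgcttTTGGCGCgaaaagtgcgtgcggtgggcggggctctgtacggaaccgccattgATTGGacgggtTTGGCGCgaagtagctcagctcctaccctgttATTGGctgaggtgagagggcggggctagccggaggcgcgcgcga
Rrm2: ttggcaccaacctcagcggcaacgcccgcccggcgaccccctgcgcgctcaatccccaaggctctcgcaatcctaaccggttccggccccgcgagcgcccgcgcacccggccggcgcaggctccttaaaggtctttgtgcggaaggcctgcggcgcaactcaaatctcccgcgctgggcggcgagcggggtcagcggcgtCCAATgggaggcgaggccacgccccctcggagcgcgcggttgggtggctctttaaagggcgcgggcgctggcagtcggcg

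In the Mki67, Ccnb2 and Cdk1 promoters, CHR words and CCAAT boxes stood in the same window, and Mki67 and Cdk1 also had 1 E2F word each, which most G2/M promoters lacked. Mcm6 had 2 E2F words and 2 CCAAT boxes and no CHR word, and Rrm2 had 1 CCAAT box and none of the other words. A promoter entry was matched for 30 of the 37 members, and Ccna2, Tpx2, Foxm1, Aurkb, Mcm4, Kif20a and Ccne2 had no match. Counted in windows of 300 bases, the CHR word was in 14 of 19 G2/M promoters (73.7%) and in 1 of 11 G1/S and replication promoters (9.09%), against 18.1% of 27025 promoters. The CHR word and the CCAAT box occurred together in 14 G2/M promoters and in 7.12% of all promoters. The E2F word was in 3 of 19 G2/M promoters (15.8%) and 5 of 11 of the others (45.5%), against 6.93% of all promoters. The words can share letters, as the E2F word and a CCAAT box do in Ccnb1 and Mcm7. These matches describe letters in the window and were not tested as sites.

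**Figure D1:**
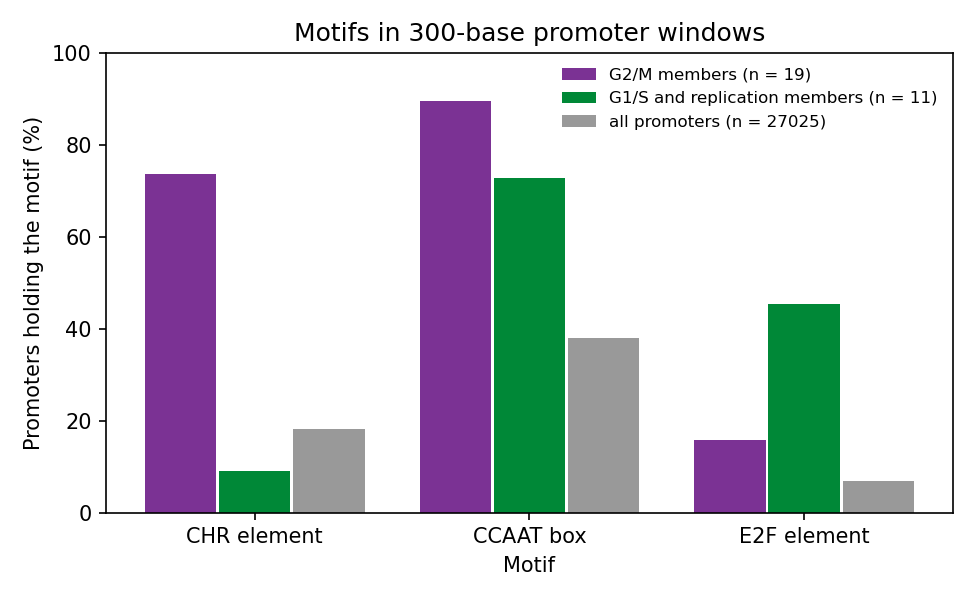
Percent of promoters (y axis) that held the CHR word, the CCAAT box or the E2F word in 300 bases around the start, for 19 G2/M members, 11 G1/S and replication members and 27025 promoters. The CHR bar reaches 73.7% in the G2/M members, 9.09% in the other members and 18.1% in all promoters.

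All 37 members changed over the 8 time points (limma moderated F test, adjusted p under 0.05), as did 63.2% of the genes tested. At 1 d, 3 members were higher and 1 was lower than at 0 d, against 20.4% and 9.01% of all genes tested. At 3 d, 32 members were higher and 2 lower, against 29% and 14.3%, and at 5 d 33 were higher and 1 lower, against 36.1% and 9.52%. On day 7 the counts were 25 and 1 (37.1% and 10.1% of all genes). They were 9 and 1 on day 14 (38% and 9.25%), 12 and 2 on day 21 (31.7% and 10.1%), and 11 and 2 on day 28 (37.8% and 9.85%). The share of members called higher was thus below that of all genes at 1 d and above it at 3, 5 and 7 d. At 14 and 28 d it was below that of all genes here, but this depended on the pseudocount and the scaling. Without replicate 1 at 3 d, 32 members were higher and 1 lower at 3 d, against 33.1% and 12.8% of genes, and the count of higher members at 7 d was 32, against 38.7% of genes. In the same fit 5 members were higher and 2 lower at 1 d, for which the share of all genes was not counted. The 7 d count was 14 without replicate 4 at 7 d (33.2% of genes) and 10 with a 1.5-fold threshold (15.4% of genes). After median-ratio scaling the counts of higher and lower members were, in the order of the days from 1 to 28, 3 and 3, 32 and 3, 32 and 1, 18 and 2, 7 and 3, 8 and 3, and 9 and 2. The matching shares of all genes were 14.3% and 17.3%, 21.8% and 22.5%, 19.1% and 20.1%, 20.3% and 20.2%, 18.9% and 19.4%, 18.5% and 19.4%, and 20% and 19.9%. The higher calls lost after this scaling were those of Rrm1 from 5 d on, of Ccnb2, Cenpa, Cenpf, Kif11, Mcm5 and E2f1 at 7 d, of Mcm3 at 14 d, of Bub1b, Tyms and Mcm2 at 21 d and of Prc1 at 28 d. The lower calls gained were those of Tpx2 at 1, 7 and 14 d, Rrm1 at 1 and 3 d and Ccne2 at 14 and 21 d. These comparisons share the 0 d samples.

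**Figure D2:**
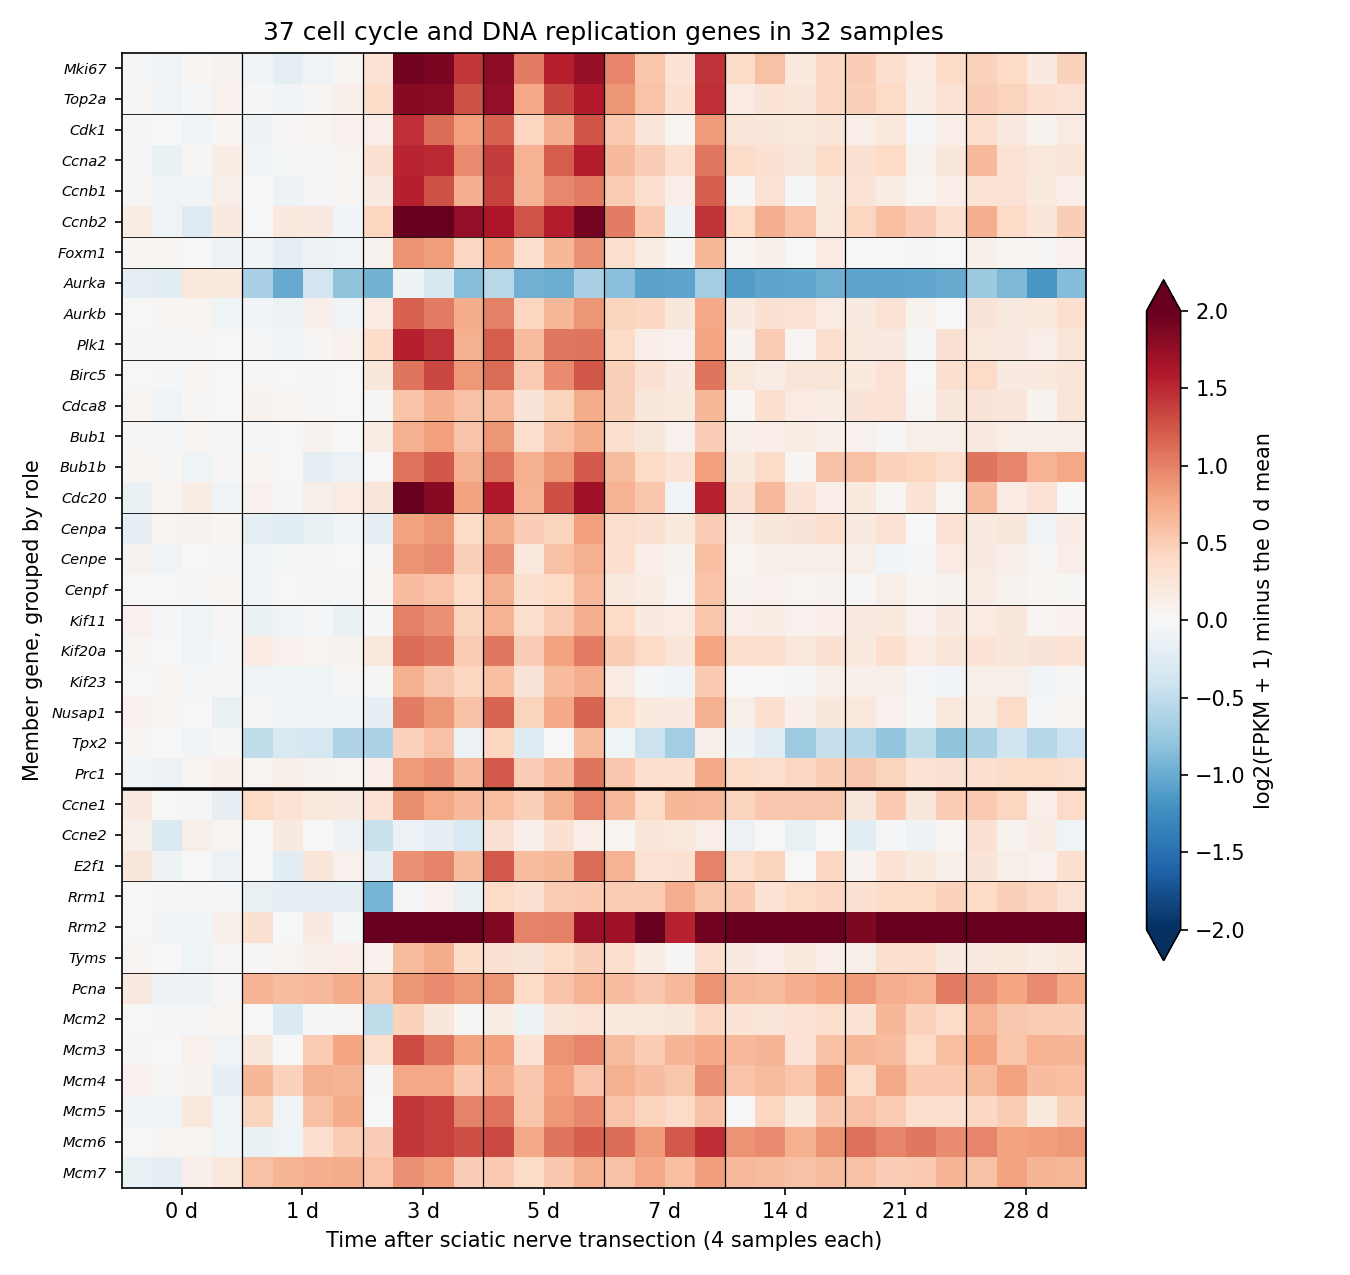
The 37 members (rows, grouped by role) in the 32 samples (columns, ordered by day and replicate) as log2(FPKM + 1) minus the mean of the 4 samples at 0 d, on a colour scale from -2 to 2. The thick line separates the 24 G2/M members, high in most samples at 3 and 5 d, from the 13 G1/S and replication members, of which Rrm2, Pcna and several Mcm genes stayed high to 28 d. Aurka is lower after 0 d.

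**Figure D3:**
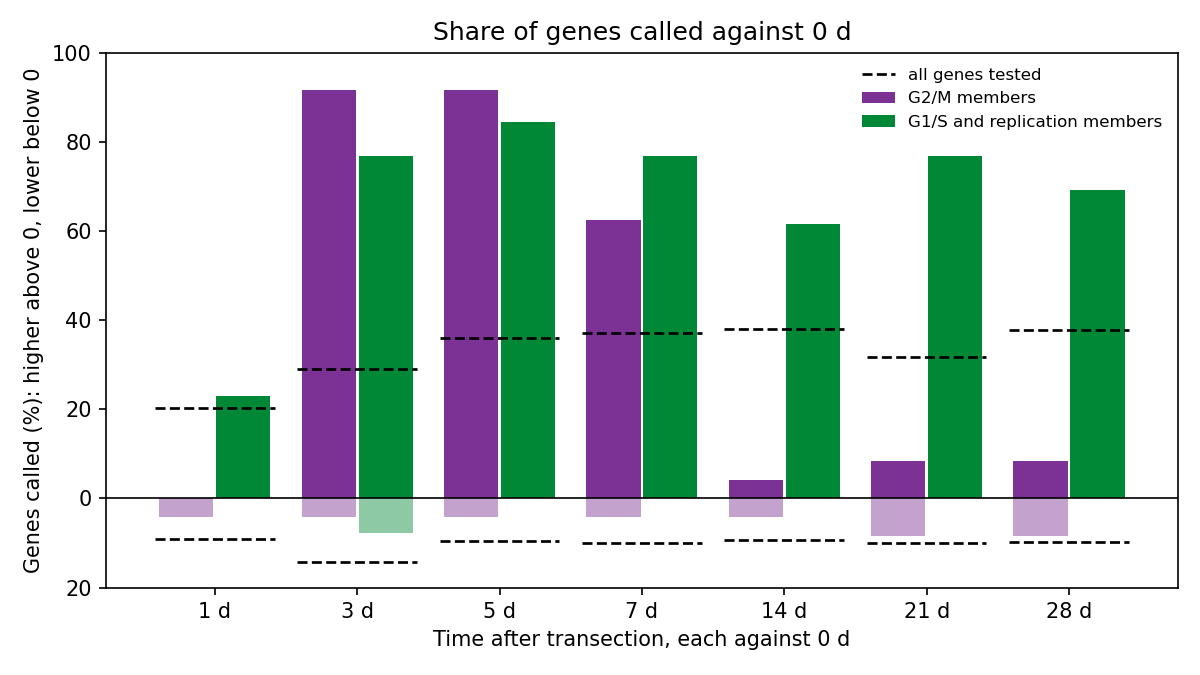
Percent of the 24 G2/M members and of the 13 G1/S and replication members called higher (bars above 0) or lower (paler bars below 0) than 0 d at each day, with all genes tested as dashed lines. Of the G2/M members 22 were higher at 3 d and at 5 d and 1 at 14 d, while 8 of the 13 others were higher at 14 d and 9 at 28 d.

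Most G2/M members rose between 1 d and 3 d, were still high at 5 d and by mean lay between their 0 d and 5 d levels at 14 d. Of the 24, 22 were called higher on each of days 3 and 5 (29% and 36.1% of all genes) and 15 on day 7 (37.1%). Only 1 (Prc1) was called higher on day 14 (38%) and 2 (Prc1 and Bub1b) on days 21 and 28 (31.7% and 37.8%). By limma-voom on recovered fragments 3 were called higher on day 14 and 4 on day 28 (38.6% and 38.3%). Without overlap, 16 and 14 lay above 0 d on these days (36.8% and 36.6%). After median-ratio scaling 11 were called higher on day 7 (20.3%), only Prc1 on days 14 and 21 (18.9% and 18.5%) and only Bub1b on day 28 (20%). Their median fold change of mean FPKM against 0 d was 0.840 on day 1, rose to 7.45 and 7.87 on days 3 and 5, and was 4.20 and 2.28 on days 7 and 14. Without replicate 1 at 3 d, the median fold at 3 d was 9.45. The 22 called at 3 d had folds of 2.29 to 15.6 there, and without that sample all 22 were called with folds of 2.83 to 19.8 and adjusted p of at most 6.9e-05. The mean was highest at 5 d for 15 of the 24, at 3 d for 8 and at 0 d for Aurka alone, but without that sample it was highest at 3 d for 20 and at 5 d for 3 (Kif23, Nusap1 and Prc1). Without replicate 2 at 5 d, the lowest of its group, it was highest at 5 d for 22 and at 3 d for 1, and without both samples at 3 d for 13 and at 5 d for 10. Which of these days was higher thus depended on single samples.

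Mki67 encodes the nuclear protein Ki-67, which coats mitotic chromosomes and is used as a label of cycling cells. Its FPKM was 0.264, 0.233, 0.326 and 0.351 at 0 d, and 0.245, 0.142, 0.228 and 0.325 at 1 d. It was 0.577, 3.95, 3.77 and 2.43 at 3 d and 3.46, 1.61, 2.82 and 3.32 at 5 d. Every sample at 3 and 5 d lay above every sample at 0 and 1 d, with replicate 1 at 3 d closest to them. Mean FPKM rose from 0.293 ± 0.0541 (SD, n = 4) to 2.68 ± 1.56 at 3 d, a fold change of 9.13 and a difference of 1.38 ± 0.24 (SE) on the log2(FPKM + 1) scale (limma adjusted p = 2.7e-05). At 5 d the fold change was 9.55 (adjusted p = 6.3e-06). At 7 d Mki67 was 1.54, 0.904, 0.556 and 2.52 FPKM and was still called higher, 4.70-fold (adjusted p = 0.0069). At 28 d its values of 0.775, 0.698, 0.457 and 0.771 did not overlap with 0 d, but the difference was not called (2.30-fold, adjusted p = 0.23). Top2a, the topoisomerase that untangles replicated chromosomes, had 0.550, 3.24, 3.17 and 1.88 FPKM at 3 d and a fold change of 11.2 over 0 d (adjusted p = 2.3e-05).

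The mitotic cyclins and their kinase rose together. Ccnb2, a B-type cyclin that activates Cdk1, had 0.382, 0.175, 0.0428 and 0.411 FPKM at 0 d. At 3 d it had 0.682, 4.45, 4.37 and 3.21, and at 5 d 2.83, 1.96, 2.70 and 3.67, all above every 0 d sample. The fold change was 12.6 at 3 d, or 1.61 ± 0.27 on the log2(FPKM + 1) scale (adjusted p = 1.4e-05), and the difference was 1.59 ± 0.27 at 5 d (adjusted p = 1.7e-05). At 7 d the values spread from 0.156 in replicate 3 to 2.35 in replicate 4, and replicate 3 lay inside the 0 d range. Ccnb1 rose 15.6-fold, Cdk1, the kinase itself, 11.5-fold and Ccna2, the S and G2 phase cyclin, 10.3-fold at 3 d. The 0 d levels of these genes rest on few reads, with 20 fragments for Ccnb1 and 10 for the checkpoint gene Bub1 summed over the 4 samples, so their folds are less precise than the log2 differences.

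Foxm1, a transcription factor that activates mitotic genes, rose from 0.203, 0.210, 0.182 and 0.0876 FPKM at 0 d to 0.227, 1.18, 1.09 and 0.566 at 3 d. The lowest sample at 3 d was only just above the highest at 0 d, and the fold change was 4.49 (adjusted p = 0.001). At 5 d it had 1.05, 0.479, 0.858 and 1.21 FPKM (5.28-fold, adjusted p = 1e-04), and at 28 d 0.248, 0.217, 0.189 and 0.238 (1.31-fold, adjusted p = 0.73). Part of its exons overlaps Tex52 on the same strand, so fragments there cannot be assigned to either gene with certainty.

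Among the mitotic kinases, Plk1, which acts from mitotic entry to cytokinesis, rose 11.3-fold at 3 d and Aurkb, the kinase of the chromosomal passenger complex, 8.77-fold. Aurka, which matures centrosomes and builds the spindle, went the other way. Its FPKM was 2.15, 2.14, 3.21 and 3.14 at 0 d, the highest level of any G2/M member there. At 1 d it was 1.31, 0.796, 1.81 and 1.08, and at 14 d 0.675, 0.751, 0.766 and 0.832. No sample at 1, 5, 7, 14, 21 or 28 d reached the 0 d samples, and at 3 d replicate 2, at 2.39, overlapped with them. Aurka was lower at each of the 7 later time points, with folds between 0.284 at 14 d and 0.581 at 3 d and adjusted p between 2.3e-06 and 0.0045. Without replicate 1 at 3 d, the fold there was 0.665 (adjusted p = 0.029).

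Tpx2, which targets Aurora A to spindle microtubules and activates it, was the other G2/M member not called higher at 3 or 5 d. It had 1.43, 1.36, 1.29 and 1.41 FPKM at 0 d and 0.530, 2.27, 2.56 and 1.22 at 3 d, and the groups overlapped. The fold was 1.20 at 3 d (adjusted p = 0.81) and 1.32 at 5 d (adjusted p = 0.46), and after median-ratio scaling these small differences changed sign without being called. At 21 d its values of 0.602, 0.395, 0.665 and 0.360 lay below those at 0 d (0.368-fold, adjusted p = 0.010), as did those at 28 d of 0.522, 0.802, 0.595 and 0.768 (0.489-fold, adjusted p = 0.043). The call at 28 d was lost with no filter, with TPM, with a 1.5-fold threshold and on leaving out any 1 of the 8 samples compared. After median-ratio scaling Tpx2 was also lower at 1 d (adjusted p = 0.019), 7 d (adjusted p = 0.031) and 14 d (adjusted p = 0.010).

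The passenger, checkpoint and centromere genes were low at 0 d and rose at 3 d and 5 d. Birc5, the survivin subunit of the passenger complex, had 0.0763, 0.0591, 0.116 and 0.0741 FPKM at 0 d and 0.269, 1.27, 1.73 and 0.975 at 3 d (13.1-fold, adjusted p = 9.8e-05). Cdc20, which activates the anaphase-promoting complex, had 0.278, 0.466, 0.561 and 0.337 at 0 d and 0.664, 4.93, 3.98 and 1.46 at 3 d (6.71-fold, adjusted p = 0.00088). Both had no overlap between the 0 and 3 d groups. Cenpa, the histone variant of centromeres, had 0.365, 0.583, 0.604 and 0.559 FPKM at 0 d and 0.368, 1.66, 1.80 and 1.01 at 3 d, with replicate 1 inside the 0 d range (2.29-fold, adjusted p = 0.006). Cenpe, Cenpf and Bub1, which act at kinetochores, rose 8.19-, 9.14- and 14.9-fold at 3 d. Of the spindle and midzone genes, the motor Kif11 rose 5.84-fold, Kif20a 5.40-fold, Kif23 3.66-fold, Nusap1 3.10-fold and the microtubule bundler Prc1 5.69-fold at 3 d. Exons of Ccna2, Plk1, Cdc20, Cdca8, Kif20a, Nusap1 and Prc1 overlap those of a gene on the opposite strand, and the use of strand in counting is not given in the sources used here.

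**Figure D4:**
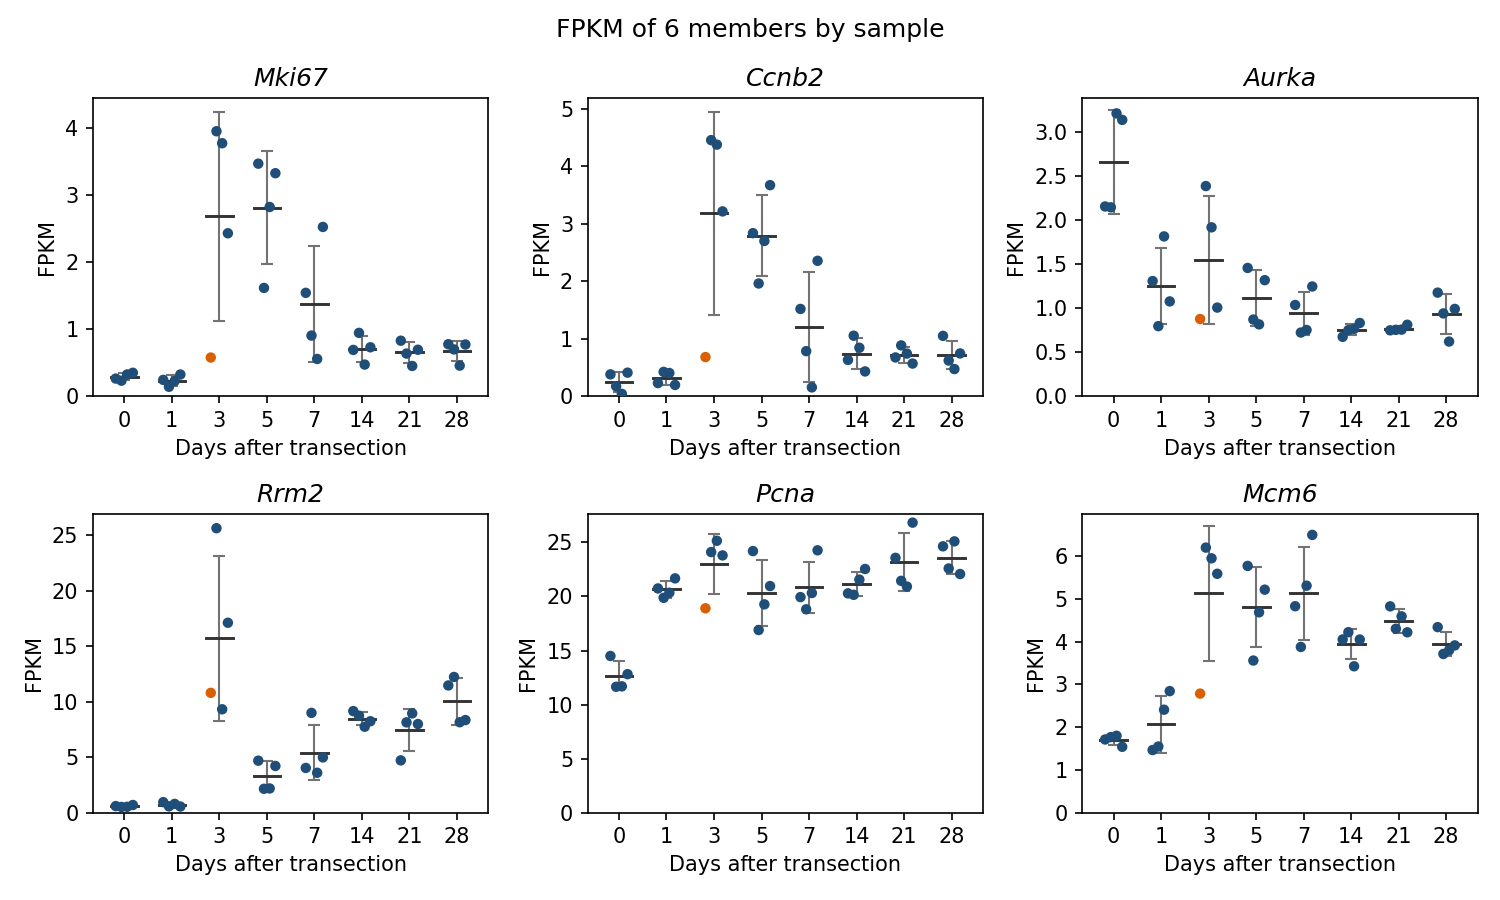
FPKM in each sample (points) with the mean and SD of 4 samples (bars) at 0 to 28 d for Mki67, Ccnb2, Aurka, Rrm2, Pcna and Mcm6, with replicate 1 at 3 d in orange. Mki67 and Ccnb2 peak at 3 and 5 d, Aurka is highest at 0 d, Rrm2 is at 15.7 at 3 d and 3.30 at 5 d, and Pcna stays above 0 d from 1 d on.

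Pcna, Mcm4 and Mcm7 were called higher at 1 d, when no G2/M member was. They were 3 of the 13 G1/S and replication members, a share near the 20.4% of all genes called higher at 1 d. Pcna encodes the sliding clamp of DNA polymerases and also serves in DNA repair. Its FPKM was 14.5, 11.6, 11.7 and 12.8 at 0 d and 20.7, 19.9, 20.3 and 21.7 at 1 d, with no overlap. The difference was 1.63-fold, or 0.67 ± 0.10 on the log2(FPKM + 1) scale (adjusted p = 2.6e-06). Mcm7, a subunit of the replicative helicase, rose from 2.49, 2.39, 3.08 and 3.42 to 4.71, 5.10, 5.30 and 5.42 at 1 d (1.80-fold, adjusted p = 7.1e-07). Mcm4 went from 2.46, 2.31, 2.43 and 1.93 to 4.18, 3.53, 4.34 and 4.25 (1.79-fold, adjusted p = 0.00014). These 3 members were higher than 0 d at all 7 later time points, also after median-ratio scaling. From 1 d to 3 d, none of them was called different, with folds of 1.11 for Pcna, 0.939 for Mcm4 and 1.03 for Mcm7. Of all 37 members, 28 were higher and 1 lower at 3 d than at 1 d, against 17.2% and 13.7% of genes, and without replicate 1 at 3 d the counts were 31 and 0, against 21.9% and 12.2%. After median-ratio scaling they were 30 and 1, against 16.3% and 16.3%. The lower member was Ccne2. Mcm7 exons overlap Cops6 and Ap4m1 on the opposite strand.

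The other helicase subunits were not called at 1 d, although without replicate 1 at 3 d, which enters the shared spread, Mcm3 (adjusted p = 0.040) and Mcm5 (adjusted p = 0.022) were higher. Mcm6 had 1.71, 1.77, 1.80 and 1.54 FPKM at 0 d, 1.46, 1.55, 2.41 and 2.84 at 1 d and 2.78, 6.20, 5.95 and 5.59 at 3 d. The 3 d samples all lay above those at 0 d (3.01-fold, 1.14 ± 0.16 on the log2(FPKM + 1) scale, adjusted p = 8.6e-07), and at 28 d the fold was 2.31. Mcm5 rose 4.09-fold and Mcm3 2.47-fold at 3 d. Mcm2 had 1.47, 1.42, 1.42 and 1.55 FPKM at 0 d and 0.741, 2.41, 1.87 and 1.51 at 3 d, where it was not called (1.11-fold, adjusted p = 0.79). It was highest at 28 d, with 2.99, 2.58, 2.52 and 2.47 and no overlap with 0 d (1.80-fold, adjusted p = 0.00057).

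Rrm2, the regulated small subunit of ribonucleotide reductase, had the largest fold change of any member at 3 d. Its FPKM was 0.586, 0.508, 0.520 and 0.682 at 0 d and 0.940, 0.563, 0.784 and 0.546 at 1 d. At 3 d it was 10.8, 25.6, 9.31 and 17.1, with replicate 1 inside the range of the other three. Mean FPKM was 0.574 ± 0.0798 at 0 d and 15.7 ± 7.43 at 3 d, a fold change of 27.4 and a difference of 3.31 ± 0.25 on the log2(FPKM + 1) scale (adjusted p = 4.8e-12). At 5 d the values of 4.68, 2.14, 2.17 and 4.20 lay below all of the 3 d samples, a step that was not tested. Rrm2 was then 4.02, 8.98, 3.59 and 4.97 on day 7 and 9.14, 8.73, 7.74 and 8.23 on day 14. It was 4.71, 8.13, 8.94 and 7.98 on day 21 and 11.5, 12.2, 8.14 and 8.34 on day 28, so that every sample after 3 d also lay above the 0 d samples. The fold at 28 d was 17.5, or 2.79 ± 0.25 on the log2(FPKM + 1) scale (adjusted p = 2e-10).

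Rrm1, the large subunit of the same enzyme, was not called at 3 d. It had 4.42, 4.52, 4.52 and 4.35 FPKM at 0 d, 3.94, 3.86, 3.83 and 3.82 at 1 d and 1.87, 4.33, 4.79 and 3.98 at 3 d (0.841-fold, adjusted p = 0.10). After median-ratio scaling it was called lower at 1 d (adjusted p = 0.022) and at 3 d (adjusted p = 0.00087). Without replicate 1 at 3 d, which enters the shared spread, it was also called lower at 1 d, and the fold at 3 d was 0.981. At 7 d it was 6.76, 6.77, 8.01 and 6.98, above every 0 d sample (1.60-fold, adjusted p = 0.00026), a call that was not made after median-ratio scaling (adjusted p = 0.060). Tyms, which makes thymidylate, rose 2.95-fold at 3 d (adjusted p = 0.00018).

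The G1/S control genes differed among themselves. Ccne1 encodes a cyclin that activates Cdk2 at S phase entry, and it rose from 0.293, 0.151, 0.123 and 0.0237 FPKM at 0 d to 0.392, 1.17, 0.946 and 0.801 at 3 d (5.60-fold, adjusted p = 2.9e-05). It was called higher at every later time point, at 3.27-fold at 28 d. Ccne2, the paralogue with the same partner, had 3.19, 2.20, 3.24 and 3.06 at 0 d, 1.87, 2.58, 2.46 and 2.15 at 3 d and 3.83, 3.17, 3.81 and 3.26 at 5 d. It was called lower at 3 d (0.774-fold, adjusted p = 0.025), but the groups overlapped and without replicate 1 at 3 d the adjusted p was 0.099. After median-ratio scaling Ccne2 was also lower on days 14 (adjusted p = 0.0041) and 21 (adjusted p = 0.012), and its small difference at 5 d changed sign without being called. Exons of Ccne2 overlap Ints8 on the opposite strand. E2f1, which switches on S phase genes, had 0.248, 1.67, 1.81 and 1.20 at 3 d (2.91-fold, adjusted p = 0.012) and 2.30, 1.18, 1.24 and 2.08 at 5 d (4.02-fold, adjusted p = 0.00022).

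Most G2/M members fell between 5 d and 14 d. In this comparison, which was added once the course was known, 22 members were lower and 1 was higher at 14 d, against 5.60% and 5.43% of genes, and 21 of the lower members were G2/M genes. The lower count was 14 without replicate 1 (4.63% of genes) or without replicate 4 at 5 d (4.66% of genes), and 13 with a 1.5-fold threshold (1.04% of genes). The remaining one was E2f1 (0.449-fold, adjusted p = 0.037). Mki67 fell to 0.690, 0.944, 0.473 and 0.730 FPKM at 14 d, below every 5 d sample (0.253-fold, adjusted p = 0.0022). The higher member was Rrm2 (2.56-fold, adjusted p = 0.0015), while Pcna (1.04-fold) and Mcm7 (1.07-fold) were not called. Between 3 d and 7 d, 5 members were lower and 2 higher, against 8.60% and 19% of genes. The lower ones were Ccnb2, Bub1, Plk1, Rrm2 and Tyms, and the higher ones Ccne2 and Rrm1. This count depended on replicate 1 at 3 d and on the scaling, with 26 members lower without that sample (9.31% of genes) and 15 lower after median-ratio scaling (13.1% of genes).

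At 14, 21 and 28 d, 8, 10 and 9 of the 13 G1/S and replication members were called higher. Of the 24 G2/M members 1, 2 and 2 were, against 38%, 31.7% and 37.8% of all genes. At 14 d the 9 higher members were Ccne1, Prc1, Rrm1, Rrm2, Pcna, Mcm3, Mcm4, Mcm6 and Mcm7, at 21 d Bub1b, Tyms and Mcm2 joined them, and Tyms was not called at 28 d. After median-ratio scaling the calls of Rrm1 on all 3 days, of Mcm3 at 14 d, of Bub1b (adjusted p = 0.052), Tyms and Mcm2 at 21 d and of Prc1 at 28 d (adjusted p = 0.063) were not made. Bub1b, a kinase-like component of the spindle checkpoint, was the G2/M member with the largest fold at 28 d. It had 0.288, 0.266, 0.184 and 0.265 FPKM at 0 d, 0.426, 0.633, 0.288 and 0.887 at 14 d and 1.62, 1.46, 1.02 and 1.15 at 28 d, with no overlap between 28 d and either of the other days. At 28 d it was 5.22-fold above 0 d (0.88 ± 0.17 on the log2(FPKM + 1) scale, adjusted p = 0.00012). Against 14 d the fold was 2.35 with an adjusted p of 0.065, which was 0.045 after median-ratio scaling and 0.0073 without replicate 1 at 3 d, since that sample enters the shared spread. Bub1b was described in this detail after its values had been seen, as were the members that do not lead their role by mean FPKM.

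Members could lie apart from 0 d in every sample without being called. With no overlap between the groups, 5 members were higher and 3 lower on day 1 (19.9% and 8.60% of genes), 22 and 0 on day 3 (23% and 12.3%, or 32 and 0 without replicate 1, against 33.1% and 13.2%), and 33 and 1 on day 5 (35.9% and 8.93%). The counts were 29 and 1 on day 7 (32.4% and 8.47%), 26 and 2 on day 14 (36.8% and 8.13%), 19 and 2 on day 21 (32.9% and 9.99%), and 23 and 2 on day 28 (36.6% and 9.06%). Of the 24 G2/M members, 16 were higher without overlap on day 14 and 14 on day 28. With a pseudocount of 0.1 in place of 1, which weighs low genes more, 15 members were called higher at 14 d and 20 at 28 d, against 39.2% and 39% of genes. Between 7 d and 14 d, limma called 0 members higher and 0 lower (1.18% and 1.36% of genes), with 1 and 3 at an unadjusted p under 0.05. Between 14 d and 28 d it also called 0 and 0 (1.60% and 2.20% of genes), with 2 and 0 at an unadjusted p under 0.05. Limma-voom on the recovered fragments called 0 members in both of these comparisons.

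**Figure D5:**
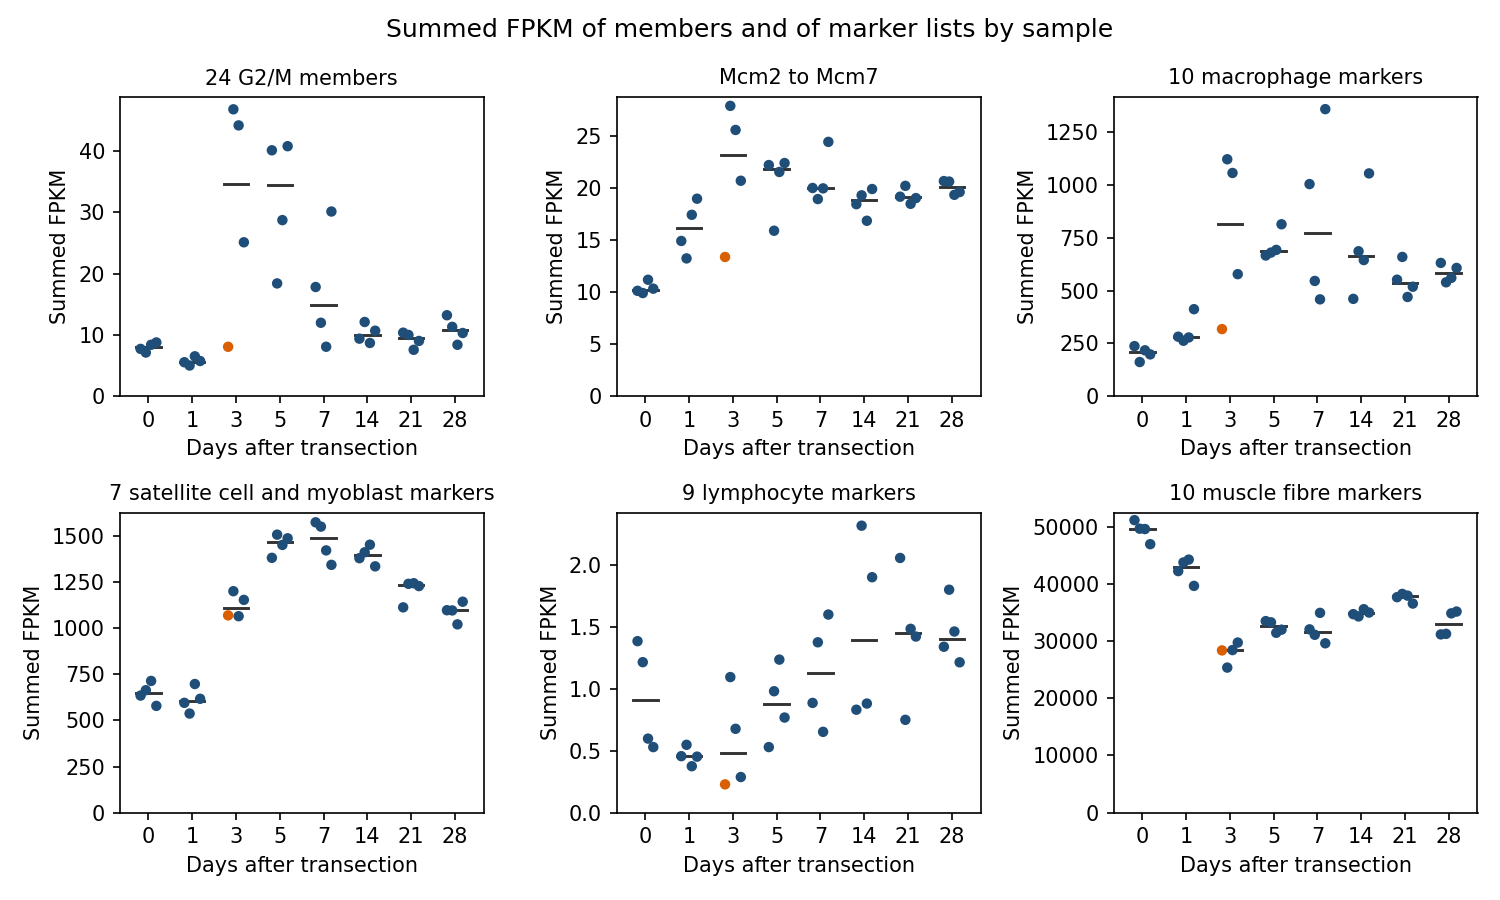
Summed FPKM in each sample (points, with the group median as a line) of the 24 G2/M members, Mcm2 to Mcm7 and the macrophage, satellite cell and myoblast, lymphocyte and muscle fibre lists at 0 to 28 d, with replicate 1 at 3 d in orange. The G2/M sum is 7.13 to 8.78 at 0 d, 18.4 to 40.7 at 5 d and 8.40 to 13.2 at 28 d, and the Mcm sum is 9.92 to 11.2 at 0 d and 19.3 to 20.7 at 28 d.

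Summed FPKM of the G2/M members was 7.13 to 8.78 at 0 d, 18.4 to 40.7 at 5 d and 8.40 to 13.2 at 28 d, so that the 0 and 28 d ranges overlapped. Aurka and Tpx2 made up much of the 0 d sum, and without these the G2/M sum was 3.63 to 4.23 at 0 d, 16.5 to 36.8 at 5 d and 7.18 to 11.5 at 28 d, with no overlap. The Mcm2 to Mcm7 sum was 9.92 to 11.2 at 0 d and 19.3 to 20.7 at 28 d, with no overlap. The macrophage (539 to 631), satellite cell and myoblast (1021 to 1144) and neutrophil (21.1 to 41.4) sums at 28 d were likewise above their 0 d ranges. The muscle fibre, endothelial and Schwann cell sums at 28 d were below theirs, and the sums of the remaining lists overlapped with them. At 3 d all 10 macrophage markers were called higher. The part of these and the other cell type markers in the members' course was not tested.

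Other genes of the same processes, taken from lists by function, were counted beside the members. Of 40 other mitosis genes, 36 were higher and 1 lower at 3 d (29% and 14.3% of all genes), and 39 and 1 at 5 d (36.1% and 9.52%). At 14 and 28 d the counts were 6 and 1 (38% and 9.25%), and 7 and 1 (37.8% and 9.85%). By limma-voom 12 and 14 of them were higher on these days (38.6% and 38.3% of genes), and 21 and 22 were higher without overlap (36.8% and 36.6% of genes). The lower one was Pttg1, the securin that holds separase inactive, at 29.1 FPKM at 0 d and 20.7 at 3 d (adjusted p = 1e-05). Ckap2, a spindle microtubule protein, went from 0.0754 to 2.27 FPKM at 3 d and was at 1.83 at 28 d (24.3-fold over 0 d, adjusted p = 1.1e-08). The kinetochore gene Spc25 was at 0.112 at 0 d and 1.60 at 14 d (14.2-fold, adjusted p = 3.7e-08). Of 30 other replication genes, 15 were higher and 2 lower at 3 d and 10 and 2 at 28 d, set against the same shares of all genes. After median-ratio scaling the counts were 12 and 6 at 3 d (21.8% and 22.5% of genes), and 6 and 5 at 28 d (20% and 19.9%). Without replicate 1 at 3 d, 19 were higher and 1 lower at 3 d, against 33.1% and 12.8% of genes. The licensing factor Cdt1 rose 8.70-fold (adjusted p = 2.1e-10) and Uhrf1, which maintains DNA methylation at forks, 11.2-fold at 3 d (adjusted p = 2e-05). Dut, which clears dUTP, was lower (0.592-fold, adjusted p = 0.0028).

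Inhibitors of the cyclin-dependent kinases had calls in both directions at 3 d and higher calls alone at 14 d. Of 8 genes, 1 was higher and 2 lower at 3 d (29% and 14.3% of all genes), and 4 were higher and none lower at 14 d (38% and 9.25%). After median-ratio scaling the counts were 1 higher and 4 lower at 3 d (21.8% and 22.5% of genes), and 1 and 1 at 14 d (18.9% and 19.4%). Cdkn1a, which encodes p21, rose from 3.20 ± 0.319 FPKM at 0 d to 35.1 at 1 d and 76.0 at 3 d, was 38.5 at 5 d and 85.6 at 7 d, and reached 126 at 14 d (39.3-fold, adjusted p = 2.2e-19). It was 55.1 at 21 d and 40.9 at 28 d. Cdkn1c, which encodes p57, fell from 5.46 to 3.18 FPKM at 3 d (adjusted p = 6.5e-05), and Cdkn2d fell from 8.83 to 5.45 (adjusted p = 9.1e-07).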

How the data were processed

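Bulk RNA-seq of 32 GAS samples was used. The authors deposited gene-level FPKM. Per the labels, CASAVA, HISAT2 2.1.0, DESeq2 and GRCm38 were used, and the methods give paired-end reads. The labels and the methods name different library kits. Use of strand in counting is not given in the sources used here. Members and gene lists were chosen with earlier results of these data known.

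From the FPKM, log2(FPKM + 1) was fitted with limma 3.58.1 (R 4.3.3) over all 8 groups, with a mean-dependent trend, on genes with FPKM of at least 0.1 in 4 samples. Genes with a Benjamini-Hochberg adjusted p under 0.05 over all genes tested were called, with no fold threshold. Fold changes are ratios of mean FPKM, since a log2(FPKM + 1) difference understates the change of low genes. Whole fragments were recovered with GENCODE M21 exon lengths, with 99.3 to 99.4% of values under 200 fragments within 0.02 of a whole number. Totals lay between 14199882 and 17561602 per sample, so a gene at an FPKM near 0.1 rests on few fragments. limma-voom on the fragments was an alternative, added after the data were seen. Other alternatives were the pseudocount, the filter, median-ratio scaling, rescaling to TPM, a 1.5-fold threshold and leaving out samples. The fit was tested on simulated data.

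The member with the highest mean FPKM in each role was described, and the others were chosen after their values were seen. Promoter windows of 300 bases came from RefSeq (GRCm38.p6) and were searched for exact words on both strands. Replicates of a group correlated at 0.963 to 0.991 over 13405 genes, and no pair agreed within sampling noise (chi-square per degree of freedom 3.76 to 60.4). Tables and plots were made with Python 3.11.15, numpy 2.4.6, pandas 2.3.3 and matplotlib 3.10.9.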

Additional observations from a re-analysis of the deposited data

Results flagged for a closer look

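Within groups of 4, a sample that stood far from the other three was found in 10 of the 296 groups checked over the members, and chance gives about 1 in 20 groups, or 15. None of the 10 was replicate 1 at 3 d. At 28 d, replicate 1 was high for Ccna2 at 0.788 FPKM (others 0.326 to 0.394) and for Bub1 at 0.178 (0.123 to 0.131), replicate 3 was low for Cdca8 at 0.140 (0.275 to 0.299), and replicate 2 was high for Mcm4 at 4.73 (3.99 to 4.08). At 7 d, replicate 2 was low for Ccne1 at 0.494 (0.784 to 0.805) and replicate 4 high for Mcm2 at 2.29 (1.83 to 1.88). Replicate 1 at 14 d was low for Ccne1 at 0.556 (0.656 to 0.671), replicate 4 at 21 d was high for Aurka at 0.812 (0.749 to 0.757), replicate 2 at 1 d was low for Mcm2 at 1.04 (1.43 to 1.51), and replicate 3 at 0 d was high for Mcm5 at 0.738 (0.419 to 0.455).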

How the results depend on the processing

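No called difference of a member changed sign under any alternative. After median-ratio scaling, of 444 member differences 406 kept their side of the threshold, 21 of them uncalled differences that changed sign, while 16 lost and 22 gained a call. The counts of members called that moved by over 1.5 times were as follows. At 1 d the higher count was 5 with TPM and the lower count 3 with median-ratio scaling. The lower count at 3 d was 1 with TPM and 0 with a 1.5-fold threshold. At 7 d the higher count was 10 with the threshold and the lower count 2 with median-ratio scaling. At 14 d the higher count was 15 with a pseudocount of 0.1 and 5 with the threshold, and the lower count 3 with median-ratio scaling. The higher count at 21 d was 3 with the threshold. At 28 d the higher count was 20 with the pseudocount of 0.1 and 7 with the threshold, and the lower count was 1 with no filter, with TPM and with the threshold. From 1 d to 3 d, the lower count was 0 with TPM and with the threshold. From 3 d to 7 d, the higher count was 1 with the threshold, and the lower count was 3 with the pseudocount of 0.1, no filter, TPM, voom or the threshold, 15 with median-ratio scaling and 29 with that scaling without replicate 1 at 3 d. From 14 d to 28 d, the higher count was 1 with median-ratio scaling, and from 5 d to 14 d the lower count was 13 with the threshold. The causes were not tested.

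Leaving out 1 sample of the compared groups gave higher counts of 3 to 5 at 1 d, 30 to 32 at 3 d, 33 to 34 at 5 d, 14 (without replicate 4) to 30 (without replicate 3) at 7 d, 9 at 14 d, 9 to 12 at 21 d and 10 to 11 at 28 d. Lower counts were 1 at 1, 5, 7, 14 and 28 d, 1 to 3 at 3 d and 2 at 21 d. From 1 d to 3 d they gave 25 to 31 higher and 0 to 1 lower, and from 3 d to 7 d 2 to 3 higher and 2 (without replicate 2 at 3 d) to 26 (without replicate 1 at 3 d) lower. From 7 d to 14 d they gave 0 and 0, from 14 d to 28 d 0 to 1 higher and 0 lower, and from 5 d to 14 d 1 higher and 14 (without replicate 1 or 4 at 5 d) to 24 lower. The columns carry no replicate numbers of the labels, and the 0 d columns share no mark with the others, so no paired fit was made against 0 d. The denervated columns share letters that no source ties to an animal or batch, and same-letter samples of different days did not all deviate together (correlations of -0.447 to 0.422 over 11818 genes, with the other pairs at -0.518 to 0.491), nor did every sample of any pair of days correlate best with its own letter. With the letter as a replicate block, chosen after seeing the data, 28 members were higher and 1 lower from 1 d to 3 d, 2 and 4 from 3 d to 7 d, 0 and 0 from 7 d to 14 d and from 14 d to 28 d, and 1 and 21 from 5 d to 14 d.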

Other observations

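The regulators upstream of the members also moved. Of 17 pocket protein, E2F and MuvB genes, 9 were higher and 0 lower at 1 d (20.4% and 9.01% of all genes), 10 and 2 at 3 d (29% and 14.3%), 13 and 1 at 14 d (38% and 9.25%) and 12 and 1 at 28 d (37.8% and 9.85%). After median-ratio scaling these counts were 6 and 0 (14.3% and 17.3% of genes), 10 and 2 (21.8% and 22.5%), 7 and 1 (18.9% and 19.4%), and 8 and 1 (20% and 19.9%). Rb1, the retinoblastoma protein that holds E2F factors inactive, went from 4.02 ± 0.341 FPKM at 0 d to 14.5 at 3 d and 31.9 at 5 d (7.95-fold, adjusted p = 1.5e-16). E2f4, a factor that works with the pocket proteins, was at 11.8 at 0 d and 44.2 at 3 d (3.75-fold, adjusted p = 8.3e-15). E2f8, an atypical repressor, was at 0.0420 at 0 d and at 0.904 at 14 d (21.5-fold, adjusted p = 5.2e-09). E2f6, another repressor, was lower at 3 d (0.822-fold, adjusted p = 0.0006) and at 28 d (0.611-fold, adjusted p = 6.7e-10).

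Of the 6 D cyclins and their kinases, 3 were higher and 1 lower at 3 d (29% and 14.3% of all genes) and 3 and 0 at 28 d (37.8% and 9.85%). Cdk4 was 1.89-fold higher at 3 d (adjusted p = 2.5e-08), Ccnd2 was lower (0.667-fold, adjusted p = 0.022) but was not called without replicate 1 at 3 d, and Ccnd3 was higher at 28 d (1.96-fold, adjusted p = 3.4e-05).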
